A study of Caenorhabditis elegans with 2 samples.

Results

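rpr-1, mrpr-1 and srpr-2.2 are 3 genes of Caenorhabditis elegans that encode the RNA of RNase P, the RNA of RNase MRP and 1 copy of the RNA of the signal recognition particle (SRP). They were taken from the 46926 genes of the RefSeq annotation of WBcel235, the assembly also called ce11, and were chosen by the measured signal, because each had a region within 500 bp in the thresholded list of LSY-27 regions. For that reason the values below are a description, with no test. The other 4 genes of the annotation whose names begin with srpr, and the Y RNA gene yrn-1, were described beside them.

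Chromatin immunoprecipitation and sequencing (ChIP-seq) had been done on whole young adult hermaphrodites of strain OP401, which stably carries a transgene for LSY-27 with GFP and FLAG at its C terminus. LSY-27 is a zinc finger protein known from genetic screens on how the ASE taste neurons of the left and right side come to differ. An antibody to GFP was used, the antibody field of the labels reads lsy-27, and the chromatin was sheared by sonication. There were 2 biological replicates, numbered 2 and 3, in 1 group, and both came from 1 transgenic line. The labels do not say how the cultures were separated. The control chromatin was not analysed here, and the labels give no wild-type or untagged group. The data come from all tissues of the animal together, and no marker of a cell type could be checked in lists of regions.

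RNase P is a ribozyme that cuts the 5′ leader from precursor tRNA, and RNase MRP is a related particle that cuts precursor ribosomal RNA in the nucleolus. The SRP binds ribosomes that make secreted proteins and brings them to the membrane of the endoplasmic reticulum, and its RNA is the scaffold of the particle. All 3 kinds of RNA are made by RNA polymerase III in vertebrates. In vertebrates the genes of RNase P and RNase MRP RNA have promoters that lie wholly upstream, with a proximal sequence element and a TATA element, while the SRP RNA gene also has promoter parts inside the transcribed DNA.

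The sequences are shown from the genome of the same build. Positions are counted along the gene from its first base, which is 0, so that the base just upstream is −1. The 100 bases upstream of mrpr-1 lie at chrII:7200133-7200232 on the plus strand. They are shown because rpr-1 and mrpr-1 shared an element there, and a nearby GTATATA. The element reads AACCC, 5 bases of any kind, GTGTCNGCC with N for any base, and GC. Both are in capitals.
mrpr-1 upstream: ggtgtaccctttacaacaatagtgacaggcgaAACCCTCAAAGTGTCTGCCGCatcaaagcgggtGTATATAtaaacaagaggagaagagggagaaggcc
Both patterns were written down after the upstream sequences of rpr-1 and mrpr-1 had been read, so their presence there is a description of the pair. The element began at −66 in rpr-1 and at −68 in mrpr-1, and GTATATA began at −31 and at −35. In mrpr-1 the common TATA motif TATAAA began at −30, where it overlaps GTATATA.

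The element was looked for on the gene strand in the 100 bases before every one of 46890 nuclear genes. It was found at 9 of them, or 0.0192% of the windows, and GTATATA was found in 1.08%. The shorter inner part GTGTCNGCC, which lies within the element, was found in 0.0661%. Of the 9 genes only rpr-1 and mrpr-1 also had GTATATA. The other 7 were the non-coding RNA genes K07C10.6, lfor-1 and lfor-2, the microRNA gene mir-8196.1, and the small nucleolar RNA (snoRNA) genes Y67A10A.14, F59C6.15 and F25H2.15. Windows of 5 of these are shown with the element in capitals, so that the letters around it can be compared. Their coordinates are chrII:11167305-11167404 on the minus strand for K07C10.6, chrIV:14327122-14327221 on the minus strand for Y67A10A.14, chrII:14636094-14636193 on the minus strand for lfor-1, chrII:14641616-14641715 on the minus strand for lfor-2 and chrX:2328894-2328993 on the plus strand for mir-8196.1.
K07C10.6 upstream: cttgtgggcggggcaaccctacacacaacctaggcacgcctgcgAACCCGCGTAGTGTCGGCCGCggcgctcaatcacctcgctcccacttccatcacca
Y67A10A.14 upstream: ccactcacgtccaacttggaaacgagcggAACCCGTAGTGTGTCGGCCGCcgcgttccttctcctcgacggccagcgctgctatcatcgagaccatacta
lfor-1 upstream: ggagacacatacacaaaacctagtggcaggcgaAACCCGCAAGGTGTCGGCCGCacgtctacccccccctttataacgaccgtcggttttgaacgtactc
lfor-2 upstream: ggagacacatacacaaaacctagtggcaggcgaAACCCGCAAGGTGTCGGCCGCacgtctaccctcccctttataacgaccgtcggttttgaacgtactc
mir-8196.1 upstream: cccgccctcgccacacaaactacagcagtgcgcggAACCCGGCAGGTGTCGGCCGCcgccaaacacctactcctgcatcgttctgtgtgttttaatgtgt
The first base of the element lay between −71 and −56 in the 9 genes. In the longer window from 250 bp before to 50 bp after the 5′ end 13 genes, or 0.0277%, held it. The added 4 were the protein-coding genes math-7 and otpl-1, the piRNA gene 21ur-13224 and the pseudogene ZK697.17, with the element between −234 and −139. None of these 4 had a thresholded region within 500 bp, and 2 had a pooled one. lfor-1 and lfor-2 have nearly the same window, so they are not separate examples.

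yrn-1 encodes the Y RNA, a small RNA that binds the Ro autoantigen protein. Its upstream window, chrIV:7499408-7499507 on the plus strand, is shown because GTATATA, in capitals, began there at −31 as in rpr-1, while the longer element was not found.
yrn-1 upstream: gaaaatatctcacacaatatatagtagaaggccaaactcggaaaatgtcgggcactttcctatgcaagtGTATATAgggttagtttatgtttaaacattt

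The 5 SRP RNA genes are shown from −60 to 29, with the first 30 bases of the gene in capitals. They are shown because each pair of copies is more alike inside the gene than in the 100 bases upstream. The windows are chrIII:5031679-5031768 on the minus strand for srpr-2.2, chrIII:5211160-5211249 on the plus strand for srpr-2.1, chrIII:4369408-4369497 on the plus strand for srpr-1.2, chrIII:4379177-4379266 on the minus strand for srpr-1.1 and chrV:9293603-9293692 on the minus strand for srpr-3.
srpr-2.2: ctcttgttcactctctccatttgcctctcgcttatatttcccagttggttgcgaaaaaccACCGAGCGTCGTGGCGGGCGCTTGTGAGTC
srpr-2.1: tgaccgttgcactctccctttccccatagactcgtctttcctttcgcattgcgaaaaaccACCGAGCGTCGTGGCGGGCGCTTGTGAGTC
srpr-1.2: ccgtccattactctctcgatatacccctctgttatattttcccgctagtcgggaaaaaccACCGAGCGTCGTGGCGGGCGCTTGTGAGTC
srpr-1.1: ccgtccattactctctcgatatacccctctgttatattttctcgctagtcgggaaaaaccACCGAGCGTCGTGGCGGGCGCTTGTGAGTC
srpr-3: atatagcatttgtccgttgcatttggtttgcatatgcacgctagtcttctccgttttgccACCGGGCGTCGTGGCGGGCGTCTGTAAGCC
srpr-2.1 and srpr-2.2 had 3 mismatches over the gene, an identity of 99%, but their 100 upstream bases had the same base at 34 places without gaps. The last 12 bases before the gene were the same in both. Counted in the same way without gaps, srpr-2.2 shared 59 of the 100 upstream bases with srpr-1.1 and 59 with srpr-1.2. srpr-1.1 and srpr-1.2 were alike on both sides, with an identity of 98.3% in the gene and 95% in the 100 bases before it. srpr-3 was 81.7 to 82.5% identical to the other copies. Within 100 bp upstream none of the 5 SRP RNA genes held the element, its inner part or GTATATA.

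All 3 genes had a thresholded region whose summit lay inside the gene. Over all nuclear genes, 772 of 46890 had a thresholded summit within 500 bp, which is 1.65%. Since the genes were chosen for this, nothing is read from their count. The share was 2.23% for the 7762 genes of the biotype ncRNA, to which the 3 genes belong, and 24% for the 612 tRNA genes, with an exact 95% Clopper-Pearson interval of 20.7 to 27.6%. It was 16.5% for 346 snoRNA genes and 10.1% for 129 small nuclear RNA (snRNA) genes. Many of these genes lie close together, so the intervals cover counting error only.

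The thresholded list held 342 regions, of which 318 were on nuclear chromosomes and 24 on mitochondrial DNA, and ranks below are among nuclear regions. Its regions were exactly those of the pooled list with a signal of at least 22.1. The signal is the authors' own score, of unstated scale, so it was compared only within a list. The lower quartile, the median and the upper quartile of the nuclear thresholded signal were 23.9, 27.1 and 32.9. Just outside the threshold, the region upstream of sec-61.G, which encodes a subunit of the Sec61 translocation channel, had a signal that also rounds to 22.1 and rank 320. The regions of the 3 genes were all above the lower quartile.

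rpr-1 (locus Y48G10A.7) is on the plus strand at chrI:13463955-13464207, 253 bp long, in an intron of ints-8, a gene of the Integrator complex that is read from the other strand. Its thresholded region, chrI:13463820-13464135, had a signal of 44.6 and rank 14 of 318. Of the 3 genes it stood highest, well above the upper quartile of the list. In replicate 2 the region at rpr-1 had a signal of 11.2 and rank 109 of 12393. In replicate 3 it had a signal of 35.7 and rank 9 of 29299. The region was thus in the top 0.88% of replicate 2 and the top 0.0307% of replicate 3.

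The summit at rpr-1 lay at 23 in the pooled and thresholded lists, at 64 in replicate 2 and at 16 in replicate 3. All 3 positions are in the first part of the RNA, downstream of the element and of GTATATA. A weaker pooled region had its summit at 636, which is 384 bp past the 3′ end, with a signal of 4.46 and rank 16964. A region of replicate 3 lay near it, at 610, with a signal of 6.39. The annotated 5′ end of ints-8 was 6393 bp from the strong summit. The window of ints-8 itself, which ran from 1000 bp before to 200 bp after its 5′ end, held a pooled signal of at most 4.48, at −932. The strong region therefore lay in the intron, away from the 5′ end of the host gene.

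mrpr-1 (locus E04F6.16) is on the plus strand at chrII:7200233-7200418 and overlaps no protein-coding gene. It is shown whole, because the summit lies inside the transcribed DNA.
mrpr-1 gene: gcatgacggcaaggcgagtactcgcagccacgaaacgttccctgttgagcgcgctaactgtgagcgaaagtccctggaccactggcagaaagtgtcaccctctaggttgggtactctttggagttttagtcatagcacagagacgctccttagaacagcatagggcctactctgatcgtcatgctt
Its thresholded region, chrII:7200132-7200447, had a signal of 27.8 and rank 140 of 318, close to the median of the list. In replicate 3 the region at mrpr-1 had a signal of 26.4 and rank 41. In replicate 2 there was no region within 500 bp, and the nearest one lay 2404 bp outside the gene, with a signal of 2.52 and rank 8593. The replicates thus differed at mrpr-1 in whether a region was listed at all.

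Such regions were few. Of the 318 nuclear thresholded regions, 309 overlapped a region of replicate 2 and all 318 overlapped one of replicate 3. The 9 without a region in replicate 2, or 2.83%, were at mrpr-1, the tRNA genes ZK563.t1 and W06G6.t2, the snRNA gene F11A5.14 and the ncRNA gene F31F7.6, and at or nearest to the protein-coding genes F02E9.10, met-1, cima-1 and M02E1.1. The replicate 2 list was shorter, with 12414 regions against 29326 in replicate 3, and the part of this difference in the gap at mrpr-1 was not tested.

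The summit at mrpr-1 lay at 57 in the pooled list and at 92 in replicate 3, both inside the gene. The 101 bases around the pooled summit, chrII:7200240-7200340 on the plus strand, are given with the summit base in capitals.
mrpr-1 summit: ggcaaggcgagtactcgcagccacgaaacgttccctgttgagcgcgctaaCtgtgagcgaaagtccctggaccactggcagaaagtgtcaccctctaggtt
A second pooled region had its summit at 256, or 71 bp past the 3′ end, with a signal of 5.67. mrpr-1 lies between 2 protein-coding genes, E04F6.6 on the minus strand, 668 bp away, and pcrg-1 on the plus strand, 131 bp away. The summit lay at −725 from the 5′ end of E04F6.6 and at −259 from that of pcrg-1, so the region falls in the 5′ window of both. With 1 summit for 3 genes, binding at mrpr-1 and at the promoter of pcrg-1 cannot be told apart from position alone.

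srpr-2.2 (locus R144.15) is on the minus strand at chrIII:5031410-5031708, 299 bp long, in an intron of the kinesin gene klp-6, which is read from the other strand. An unclassified non-coding RNA gene, R144.16, overlaps its 5′ end. The thresholded region at srpr-2.2, chrIII:5031349-5031664, had a signal of 25.7 and rank 182 of 318, a little below the median of the list. In replicate 2 the region had a signal of 10.6 and rank 140. In replicate 3 it had a signal of 14.2 and rank 391. These ranks are the top 1.13% of replicate 2 and the top 1.33% of replicate 3. The lists differ in length, so the 2 shares do not show that the replicates were alike here. The region was among the 342 strongest of replicate 2 and not among the 342 strongest of replicate 3.

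The summit at srpr-2.2 lay at 201 in the pooled list, at 199 in replicate 2 and at 161 in replicate 3. The 101 bases around the pooled summit, chrIII:5031457-5031557 on the minus strand, are given with the summit base in capitals.
srpr-2.2 summit: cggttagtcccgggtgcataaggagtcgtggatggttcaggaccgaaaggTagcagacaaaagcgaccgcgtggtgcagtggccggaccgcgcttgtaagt
A second pooled region had its summit at 2, at the start of the gene, with a signal of 13.3 and rank 1207. This summit also lay inside the overlapping R144.16, so position alone cannot assign it to either gene. Neither replicate listed a second region within 500 bp of srpr-2.2. The strong summits of the 3 genes thus lay 9.09%, 30.6% and 67.2% along rpr-1, mrpr-1 and srpr-2.2. The 5′ end of klp-6 was 578 bp from the summit, and its window held no region in any of the 4 lists.

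**Figure D1:**
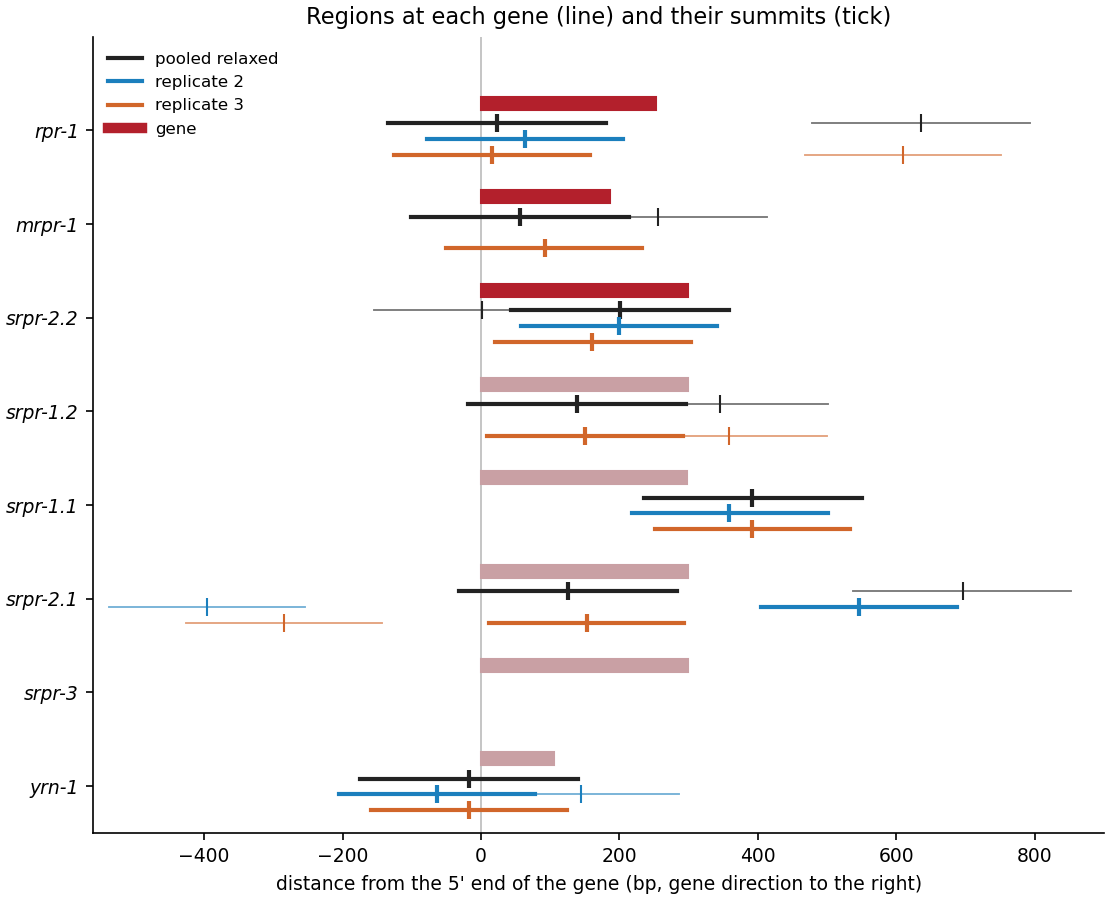
Regions within 500 bp of the 3 genes, the other SRP RNA genes and yrn-1, by distance in bp from the 5′ end of the gene, with gene direction to the right. Thick lines are the strongest region of a gene in each list, thin lines are weaker regions, and ticks are summits. At rpr-1, mrpr-1 and srpr-2.2 every strongest summit is inside the gene, and mrpr-1 has no line for replicate 2.

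Summit positions are coarse. The regions had a fixed width, 316 bp in 95.6% of the thresholded list, with the summit at the centre, and rpr-1, mrpr-1 and srpr-2.2 are all shorter than their region. The spread between the lists was 48 bp at rpr-1, 35 bp at mrpr-1 and 40 bp at srpr-2.2. At srpr-2.2 the pooled list held summits at 201 within the gene and at 2 at its start, where R144.16 overlaps it. These pooled regions overlap each other. Each replicate listed only 1 region there, with its summit at 199 in replicate 2 and at 161 in replicate 3.

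The regions around each gene were compared with its own, which had been chosen for a high signal. Within 10 kb of rpr-1 there were 10 other pooled regions, the highest with a signal of 7.63, so the region at the gene was 5.85 times as strong. The same ratio was 2.59 at mrpr-1, where the highest other signal was 10.7, and 3.48 at srpr-2.2, where it was 7.39. In replicate 2 the ratio was 2.16 at rpr-1 and 2.04 at srpr-2.2. In replicate 3 it was 8.54 at rpr-1, 3.29 at mrpr-1 and 1.99 at srpr-2.2. The pooled ratio was also above 1 at genes not chosen by this signal, with 1.29 at srpr-2.1 and 1.21 at yrn-1. It was 1.03 at srpr-1.2 and 0.973 at srpr-1.1, which lie 9143 bp apart. In this list and in replicate 3 the highest other region of each was that of the other, so their ratios are not separate. The replicate 3 ratio was 0.881 at srpr-2.1, 0.7 at yrn-1, 0.578 at srpr-1.2 and 1.73 at srpr-1.1. For replicate 2 it was 1.07 at srpr-2.1, 1.91 at yrn-1 and 0.671 at srpr-1.1.

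The other RNA genes within 10 kb of the 3 genes were listed. The nearest to rpr-1 was a piRNA gene, 21ur-15556, 3521 bp away, and Y48G10A.9 lay 6541 bp away. The only one within 10 kb of mrpr-1 was E04F6.17, 4758 bp away. Near srpr-2.2, beside the overlapping R144.16, the long non-coding RNA genes R144.19 and linc-2 lay 956 bp and 6403 bp away. No tRNA gene lay within 10 kb of any of the 3 genes.

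None of the other 4 SRP RNA genes had a thresholded region, and 3 of the 4 had a pooled region within 500 bp. For comparison, 45.7% of all nuclear genes and 39.3% of ncRNA genes had a pooled region at that distance. In replicate 2 the shares were 25.9% and 21%, and in replicate 3 they were 45.7% and 37.6%. The nearest thresholded regions lay 96.4 kb from srpr-1.1, 99.7 kb from srpr-1.2, 130 kb from srpr-2.1 and 24.6 kb from srpr-3.

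srpr-1.2 lies at chrIII:4369468-4369766 on the plus strand, in an intron of the choline kinase gene ckb-2. Its pooled region had a signal of 17.3 and rank 625, with the summit at 139. In replicate 3 the signal was 7.78, with rank 2141, and replicate 2 had no region within 500 bp. srpr-1.2 thus resembled mrpr-1 in being listed in replicate 3 and not in replicate 2, at a lower rank.

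srpr-1.1 lies at chrIII:4378909-4379206 on the minus strand. Its pooled region had a signal of 16.9 and rank 677, with the summit at 392, which is 95 bp past the 3′ end. That summit lay inside the protein-coding gene pals-26, which ends 2 bp from srpr-1.1, so position alone cannot assign the region to srpr-1.1. In replicate 2 the signal was 2.49, with rank 8834, and in replicate 3 it was 13.5, with rank 461. No summit fell inside srpr-1.1 in any list.

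srpr-2.1 lies at chrIII:5211220-5211518 on the plus strand. Its pooled region had a signal of 14.7 and rank 935, with the summit at 126. In replicate 3 the summit was at 153, with a signal of 6.41 and rank 3769. In replicate 2 the summits were outside the gene, at 547 with a signal of 5.33 and at −396 with a signal of 2.31. The near-identical pair srpr-2.1 and srpr-2.2 thus had ranks 935 and 182 in the pooled list.

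srpr-3 lies at chrV:9293334-9293632 on the minus strand and had no region within 500 bp in any list. The nearest pooled summit was 2549 bp away, with a signal of 7.36. yrn-1, in an intron of the protein-coding gene F55G1.15, had no thresholded region. Its pooled region had a signal of 14.3 and rank 990, with the summit at −17. That summit lay inside the ncRNA gene F55G1.20, which overlaps yrn-1, so position alone cannot assign it to either gene. A region was listed at yrn-1 in replicate 2 with a signal of 5.25 and in replicate 3 with a signal of 7.95. In the pooled list the region at yrn-1 ranked near that at srpr-2.1 and below those of the 3 genes.

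**Figure D2:**
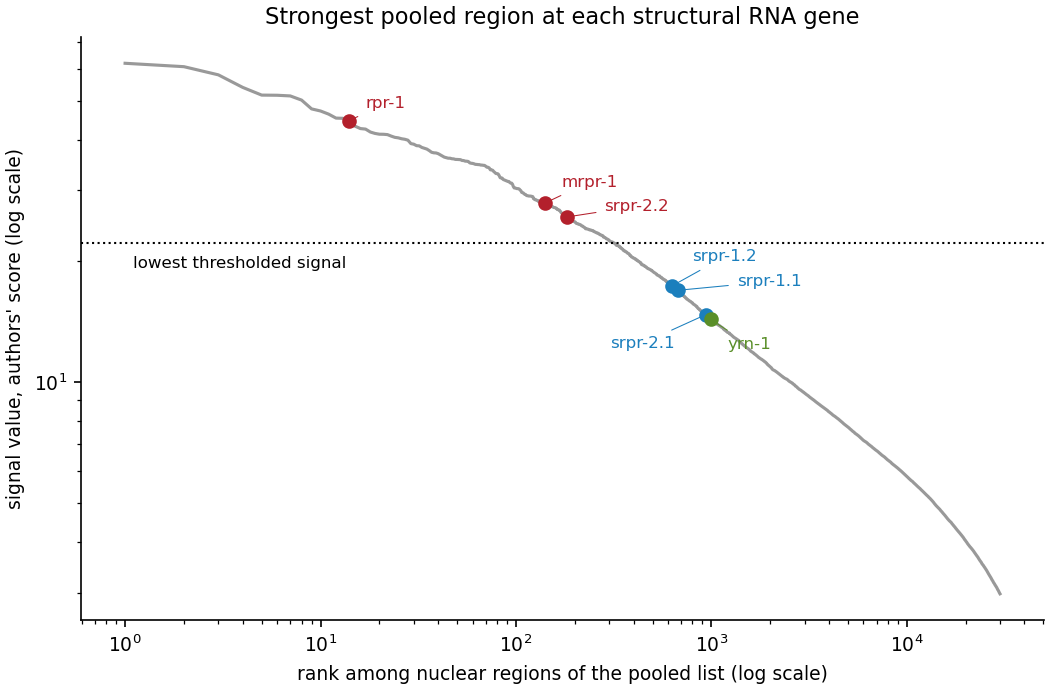
Signal value, the authors' score, against rank for the nuclear regions of the pooled list, both on log scales, with the strongest region at each gene marked. rpr-1, mrpr-1 and srpr-2.2 (red) are above the lowest thresholded signal of 22.1, and 3 other SRP RNA genes (blue) and yrn-1 (green) are between 14.3 and 17.3.

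**Figure D3:**
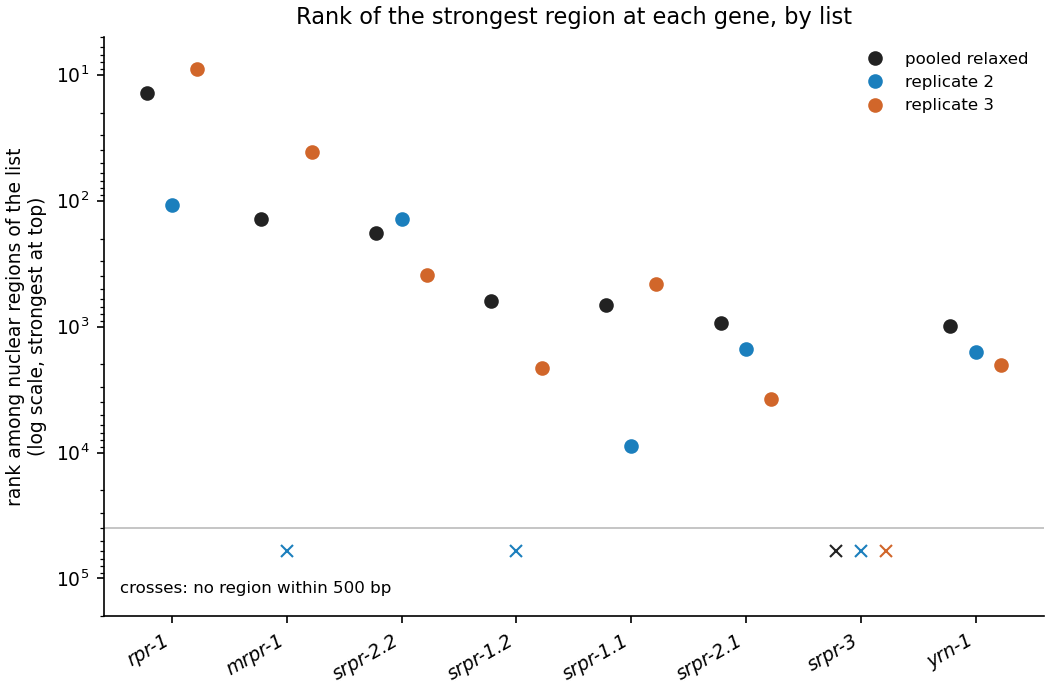
Rank of the strongest region within 500 bp of each gene among the nuclear regions of each list, on a log scale with the strongest at the top. Crosses mark lists with no region. rpr-1 is at rank 9 in replicate 3 and 109 in replicate 2, mrpr-1 and srpr-1.2 have a cross for replicate 2, and srpr-3 has crosses throughout.

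The copies of the SRP RNA gene share long runs of sequence, and how the authors placed reads that match several sites is not known. Stretches of 32 bases were therefore counted in the genome, on both strands. All such stretches of rpr-1, mrpr-1, srpr-3 and yrn-1 occurred once. Of the stretches inside srpr-2.2, 29.9% occurred once, against 28.4% for srpr-2.1, 25.4% for srpr-1.2 and 13.1% for srpr-1.1, and none of them occurred more than 4 times. Over the whole thresholded region at srpr-2.2, flanks included, 47.4% of the stretches occurred once, and over those at rpr-1 and mrpr-1 all did. The region at srpr-2.2 thus covers in part DNA that other copies share, and the part of these copies in its signal was not tested.

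The pooled regions at srpr-1.2 and srpr-2.1 were 23.5% and 29.5% unique by this measure. The region past the 3′ end of srpr-1.1 was 91.6% unique. srpr-3, the copy whose own sequence was unique throughout, was the one with no region. A search with blastn gave 1 match in the genome for rpr-1 and 1 for mrpr-1, each the gene itself. Beside the srpr genes it gave 6 short pieces on chromosome X, of at most 55 bp, none with a region in any list.

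**Figure D4:**
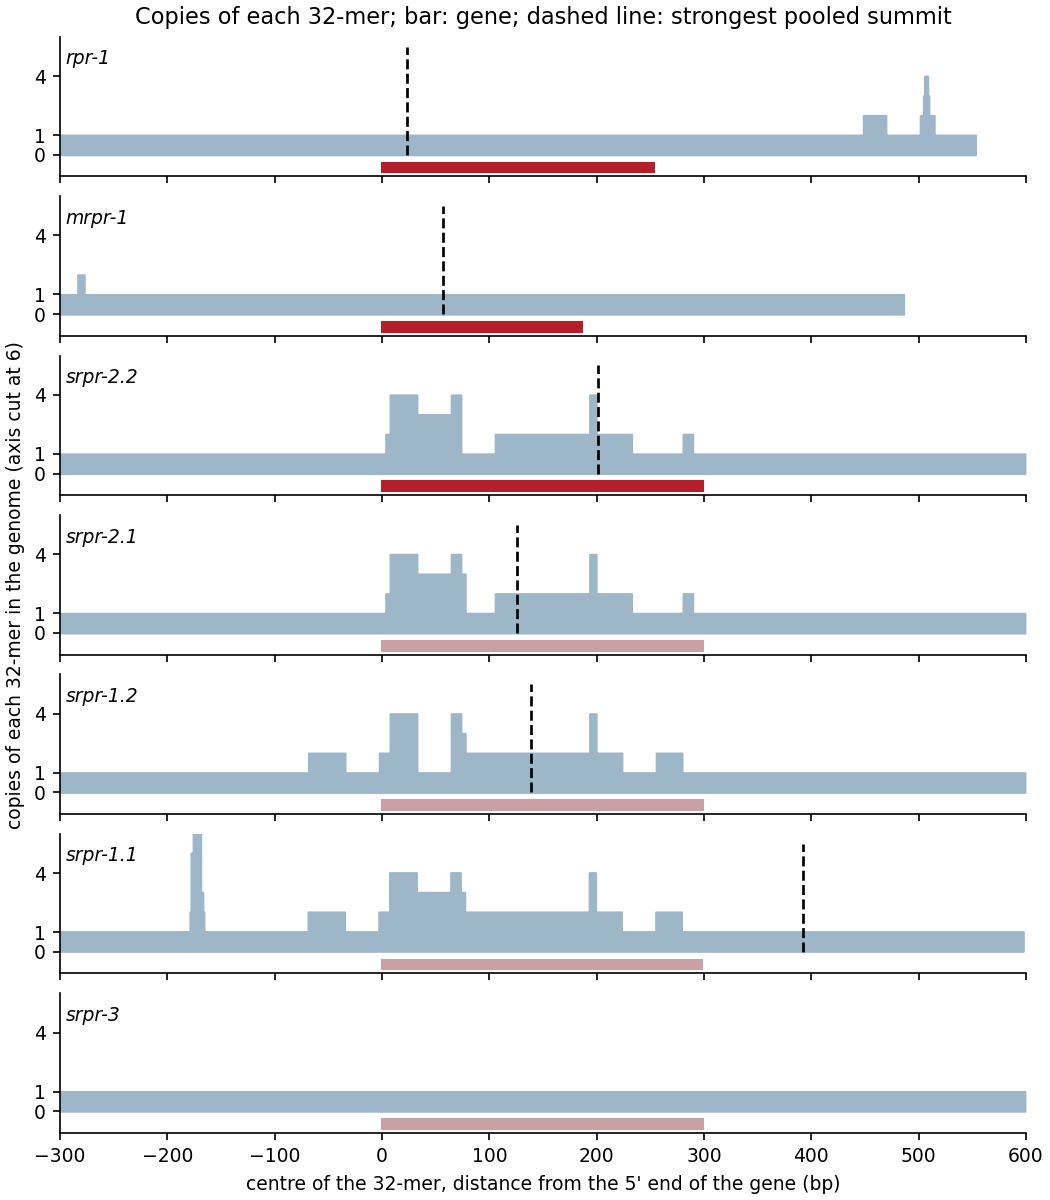
Copies in the genome of each stretch of 32 bases, by the distance of its centre in bp from the 5′ end of the gene, with the axis cut at 6 copies. The bar is the gene and the dashed line the strongest pooled summit. The stretches of rpr-1, mrpr-1 and srpr-3 occur once inside the gene, and those of the other SRP RNA genes occur up to 4 times.

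The 9 genes with the upstream element could be followed in the lists. All 9 had a pooled region within 500 bp, 6 had one in replicate 2 and 8 in replicate 3, and 4 had a thresholded region. rpr-1 and mrpr-1 are among these 9 and were chosen for their region. Of the other 7, all had a pooled region and 2 a thresholded one, beside shares of 45.7% and 1.65% over all nuclear genes. These were Y67A10A.14, with a signal of 32.1 and rank 84, and F59C6.15, with a signal of 23.7 and rank 250. Both are snoRNA genes, a class in which 16.5% had a thresholded region and 69.1% a pooled one. F25H2.15 is of this class too, and lfor-1 and lfor-2 are not separate examples.

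The summits did not keep 1 distance from the element. At Y67A10A.14 and F59C6.15 they lay at −48 and −44, upstream of the gene and 23 and 27 bp past the start of the element. At rpr-1 and mrpr-1 they lay 89 and 125 bp past the start of the element. K07C10.6 had a pooled signal of 17.8 with the summit at −21, and mir-8196.1 a signal of 4.44 with the summit at 17. At lfor-1 the pooled summit lay at 697, past the 3′ end, and lfor-2 had a signal of 5.28.

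**Figure D5:**
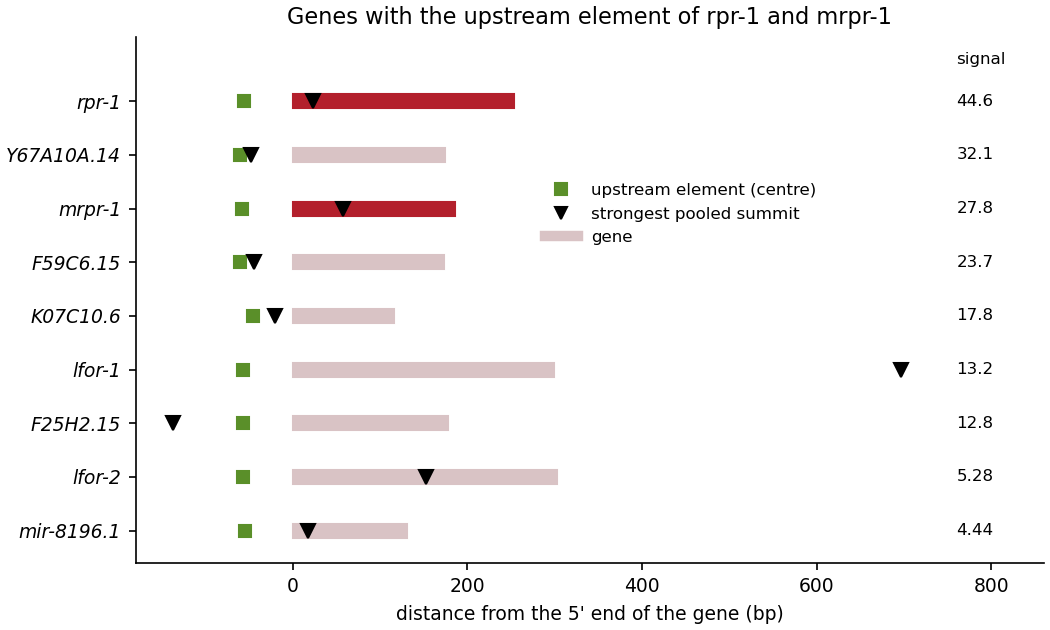
The 9 genes with the upstream element shared by rpr-1 and mrpr-1, by distance in bp from the 5′ end of the gene. Squares are the centre of the element, triangles the strongest pooled summit, bars the gene, and the signal of the region is at the right. The search window set the place of the element to within 100 bp, and the summits range from −137 to 697.

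The internal promoter motifs of tRNA genes were looked for in strict forms that most tRNA windows did not match. The windows end 50 bp after the 5′ end, so the tRNA shares leave out the rest of the gene. The A box, TGGC with 2 bases of any kind and AGTGG, was in 0.467% of all windows from 250 bp before to 50 bp after the 5′ end, on either strand, and in 9.8% of tRNA windows. The B box GTTCNANNC was in 10% of all windows and 20.6% of tRNA windows. From 100 bp before to 50 bp after the 5′ end these shares were 5.17% and 4.25%. They do not measure how often a whole tRNA gene holds the B box. Neither was in the window of rpr-1, mrpr-1 or srpr-2.2, or on the gene strand inside these genes. This says only that these letters are not there. TATAAA was in the window of mrpr-1 and, on the other strand only, of srpr-2.2, beside 37.4% of all windows. GAGAG was in the windows of all 3 genes, beside 33.9% of all windows and 45.8% of ncRNA windows. A run of TTTT, at which RNA polymerase III stops, was found at the 3′ end of each of the 3 genes, from 10 bp before to 10 bp after it. It was found there in all 4 other srpr genes and in yrn-1 too, and in 34.3% of all nuclear genes, 21.5% of ncRNA genes and 94% of tRNA genes.

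The protein genes around these RNAs were listed by the same 5′ window. Over all 19971 nuclear protein-coding genes, 1.07% had a thresholded summit in this window, 41.5% a pooled one, 21.2% one in replicate 2 and 39.9% one in replicate 3. Of 70 gene names tried in 7 lists, 45 were in the annotation, as 43 genes. Of the 43, 2 had a thresholded summit and 27 a pooled one, 18 one in replicate 2 and 30 one in replicate 3. The lists are small, and these counts describe them only.

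Of 4 genes for the proteins of RNase P and RNase MRP, popl-1, popl-4, popl-5 and popl-7, none had a thresholded summit. The pooled list had 1, at popl-7, with a signal of 10 at −216, though the product that the annotation gives for popl-7 is not a subunit of either particle. Only 4 of the 9 names in this list were found, so the other proteins of the particles were not looked at.

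Of 7 genes for SRP proteins and the SRP receptor, 1 had a thresholded summit and 6 a pooled one. The thresholded one was F37F2.2, the putative 19 kDa protein of the SRP, with a signal of 22.7 at −243 and rank 290. A snoRNA gene, F37F2.4, lay 322 bp from that summit. Next in the list was F21D5.7, with a pooled signal of 9.73. Of 3 genes of the Sec61 channel, through which the SRP's clients pass the membrane, sec-61.B had a thresholded summit, with a signal of 30 at −419 and rank 105. That summit lay inside 2 ncRNA genes, Y38F2AR.16 and Y38F2AR.17. sec-61.G and sec-61.A had pooled signals of 22.1 and 8.36.

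None of 5 genes for subunits of RNA polymerase III had a thresholded summit, and 2 had a pooled one, rpac-19 with a signal of 13.1 and rpc-1 with 3.19. SNAPc is the complex that binds proximal sequence elements, and 5 of its 8 genes had a pooled summit. The strongest were snpc-3.4, with a signal of 20.5, and snpc-1.4, with 13.8. Of 5 genes for TFIIIB, TFIIIC and the TATA-binding protein, 1 had a pooled summit, tftc-5 with a signal of 9.39. The Integrator complex cuts the 3′ ends of small nuclear RNAs, and 9 of its 11 genes had a pooled summit. The strongest were ints-11 and ints-4, with signals of 18.6 and 18.5, while ints-8, the host of rpr-1, had 4.48.

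The regions whose ranks were most like those of each gene were found by the sum of absolute differences of log10 rank over the pooled list and both replicates, among nuclear thresholded regions found in both replicates. For rpr-1 the sum was 0.31 for the region at mdt-26, a subunit gene of the Mediator complex, 0.361 for that at the ncRNA gene C10C6.11 and 0.4 for that near the snoRNA gene F32E10.10. For mrpr-1 it could be taken over 2 lists only. It was 0.0867 for the region near the snoRNA gene ZK265.10, 0.13 for that near the ncRNA gene F09B9.7 and 0.176 for that at the tRNA gene C14F11.t1. These 3 regions differ from mrpr-1 in being listed in replicate 2, at ranks 2178, 6686 and 6105. The other thresholded regions missing from replicate 2 were not candidates. For srpr-2.2 it was 0.239 for a region whose nearest gene was C14C11.7, 1434 bp away, 0.255 for one 632 bp from hcp-3, and 0.288 for one at the ncRNA gene F42A10.12.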

How the data were processed

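The authors deposited lists of regions in narrowPeak format for ce10 and ce11. Per the text deposited beside them, relaxed lists were called for each replicate and for the pooled replicates against a control, and the thresholded list was made from these by the irreproducible discovery rate method. The peak caller, aligner, settings, depths and treatment of reads with several matches are not given in the sources used here. Without a depth, no counting interval can be put on a signal. The authors' signal value is in column 7, and column 9 holds their deposited −log10 q-value, which was 3.47 for every thresholded region and was not used for ranking. Summits are from column 10.

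The ce11 lists were set against the RefSeq genome and annotation of WBcel235, the same assembly. Ranks, distances, shares and motif matches were computed with Python 3.11.15, pandas 2.3.3 and scipy 1.17.1, alignments with Biopython 1.88 and similarity searches with blastn 2.17.0 at an e-value of 1e-05. Assignment of summits and the motif search were tested on simulated data. Named genes were the 3 genes, all srpr genes, the overlapping or flanking protein-coding genes, RNA genes within 10 kb, genes of each pathway list with a thresholded summit or else up to 2 with the strongest pooled one, and 3 regions of like rank for each gene. yrn-1, the genes with the element and the remaining pathway genes that are named were added after their values were seen. The genes and lists were chosen with earlier results of these data known.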

Additional observations from a re-analysis of the deposited data

How the results depend on the processing

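All 3 genes kept a thresholded region at summit distances of 250 and 1000 bp, with the summit inside the gene, by overlap and in the ce10 list. With regions above the median signal 2 remained, without srpr-2.2. Taking the 342 strongest regions of 1 replicate alone left 2 of the 3 each time. These were rpr-1 and srpr-2.2 for replicate 2, and rpr-1 and mrpr-1 for replicate 3. At this cut mrpr-1 thus rests on replicate 3 alone and srpr-2.2 on replicate 2 alone. By replicate, in lists of unequal length, the rank of rpr-1 was 109 in replicate 2 and 9 in replicate 3, and that of srpr-2.2 140 and 391. Of the other srpr genes, 3 had a pooled region, 2 to 3 one in a single replicate, and 0 a thresholded one, also 0 within 1000 bp. The share of snRNA genes ranged from 6.2 to 10.1% and the number of pathway genes from 3 to 5 with 1 replicate, against 10.1% and 2. In the window from 100 bp before to 50 bp after the 5′ end TATAAA was at 1 of the 3 genes, TTTT at 1 and GAGAG at 2. In the longer one they were at 2, 3 and 3. Over all genes the shorter window held TATAAA in 21.7%, TTTT in 97.7% and GAGAG in 20.1%. The longer one held them in 37.4%, 99.7% and 33.9%. The ce10 list, the thresholded list for the other srpr genes and the single replicates for all but the 3 genes were added after the data were seen. No paired analysis was possible because there is only 1 group. The depth is unknown, and 2 replicates limit what can be said of any 1 region.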
